A study of Mus musculus with 15 samples.

Results

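The genes described here encode 10 neuropeptide precursors of the hypothalamus, the tissue that lies directly below the thalamus: Oxt, Avp, Crh, Trh, Pmch, Hcrt, Gal, Cartpt, Pomc and Agrp. They were taken by symbol from tables of expression in the mouse thalamus. All 10 were found among the 25080 genes listed, and 8 passed a filter of at least 1 TPM in at least 3 libraries, which 13471 genes passed in all. Agrp and Crh stayed under it. The study asked how repeated cocaine changed thalamic RNA in control mice and in Maged1-cKO mice. In Maged1-cKO males, Cre driven from the Vglut2 locus removes a floxed part of Maged1, a gene of the X chromosome, in glutamatergic Vglut2 neurons alone, so other cells of the tissue keep it and a shortened transcript can remain. Control males were floxed littermates without the deletion by the study's methods, while the library titles call them Maged1 WT. All mice were 2 to 4 months old on a C57Bl6J background. Every mouse received saline for 3 days and then, for 5 days, intraperitoneal injections of either saline or cocaine (20 mg/kg). Whole dissected thalamus was sequenced, and 14 of the 15 libraries were analysed here, each a separate sample. There were 4 each from control mice after saline, control mice after cocaine and cKO mice after saline, and 2 from cKO mice after cocaine, by their labels. A further library labelled cKO after cocaine had no values available here. The values are TPM (a transcript level corrected for transcript length and library total), which keep no record of sequencing depth, so the counting error behind each value is unknown. They were divided by a TMM factor per library (a scale set on the bulk of the genes, below called scaled TPM), and values are given in replicate order.

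Neuropeptides are cut from larger precursors inside dense-core granules and released from neurons to act on receptors of other cells or as hormones in the blood. Most of these precursors are made by small, compact groups of neurons. Oxytocin and vasopressin come from large neurons of the paraventricular and supraoptic nuclei, melanin-concentrating hormone and orexin from the lateral hypothalamus, and the melanocortin and Agrp peptides from the arcuate nucleus, while galanin, TRH and CART are made at several sites, some of them outside the hypothalamus. The thalamus holds fibres and receptors for several of these peptides. In a bulk sample, fewer cells of a type and less RNA per cell cannot be told apart.

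Some facts of the libraries touch every comparison. Maged1, the deleted gene, was at 153, 167, 150 and 151 scaled TPM in control saline and at 77.4, 76.6, 68.2 and 64.6 in cKO saline. It went against the labels after cocaine, so those libraries are called control-labelled and cKO-labelled here. It was at 58.5, 87.7, 77.3 and 70.7 in the 4 libraries labelled control and at 154 and 174 in the 2 labelled cKO. Each comparison of cocaine with saline under one label therefore also compared libraries that differed in Maged1. Its log2 difference was -1.09 in control-labelled and 1.19 in cKO-labelled mice. Cocaine and Maged1 level cannot be told apart in these comparisons. The genotype tag of 4 saline libraries (control saline replicates 3 and 4, cKO saline replicates 1 and 2) names the other genotype than the title does. In these 4 libraries Maged1 went with the title, at 150 and 151 scaled TPM in the control and 77.4 and 76.6 in the cKO libraries. Saline groups made by the tags therefore mix libraries of both Maged1 levels. The titles were followed here, and the 10 libraries whose title and tag are in accord were also fitted alone. Markers of thalamic neurons summed to 330 to 611 scaled TPM in all libraries, so the labelled tissue is present throughout. Control saline replicate 1 stood apart by Ttr, the main product of the choroid plexus, at 1410 scaled TPM against 1.53 to 51.1 in the others, and by Gh, a pituitary hormone, at 4.28 against at most 0.368. Control cocaine replicate 1 held the least Gad1, the enzyme that makes GABA, at 4.68 scaled TPM.

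The stretches of DNA just before the start sites of 7 of the genes are shown because these are the genes that varied together in pairs (Oxt and Avp, Pmch and Hcrt, Trh and Gal) or differed in opposite directions in the control-labelled and cKO-labelled mice (Cartpt). Each holds the 250 bases before the start site, 5′ to 3′ on the strand of the gene, from RefSeq on GRCm38.p6, in which 8 of the 10 genes had an entry. Capitals mark motifs found by letters on both strands.
Oxt, chr2:130575919-130576168, plus strand: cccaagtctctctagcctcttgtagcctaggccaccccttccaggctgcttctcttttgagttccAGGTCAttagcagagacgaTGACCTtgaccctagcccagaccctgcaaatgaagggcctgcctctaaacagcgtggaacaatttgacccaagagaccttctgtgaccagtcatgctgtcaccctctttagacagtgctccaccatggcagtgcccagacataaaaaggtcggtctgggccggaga
Avp, chr2:130582589-130582838, minus strand: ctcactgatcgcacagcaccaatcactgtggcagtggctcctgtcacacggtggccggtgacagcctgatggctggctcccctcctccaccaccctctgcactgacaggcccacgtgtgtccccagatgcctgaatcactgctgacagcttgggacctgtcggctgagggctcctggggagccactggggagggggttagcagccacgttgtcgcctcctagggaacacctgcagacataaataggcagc
Pmch, chr10:88090822-88091071, plus strand: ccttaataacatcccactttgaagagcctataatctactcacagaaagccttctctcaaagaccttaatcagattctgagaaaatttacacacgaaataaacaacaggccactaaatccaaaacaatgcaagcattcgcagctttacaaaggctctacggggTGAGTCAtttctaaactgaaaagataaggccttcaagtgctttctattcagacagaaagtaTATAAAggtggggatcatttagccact
Hcrt, chr11:100762932-100763181, minus strand: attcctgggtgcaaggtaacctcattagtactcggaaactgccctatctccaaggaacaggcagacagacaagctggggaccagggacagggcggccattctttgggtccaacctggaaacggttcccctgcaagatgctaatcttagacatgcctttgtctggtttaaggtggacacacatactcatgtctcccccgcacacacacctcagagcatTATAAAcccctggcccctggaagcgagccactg
Trh, chr6:92244651-92244900, minus strand: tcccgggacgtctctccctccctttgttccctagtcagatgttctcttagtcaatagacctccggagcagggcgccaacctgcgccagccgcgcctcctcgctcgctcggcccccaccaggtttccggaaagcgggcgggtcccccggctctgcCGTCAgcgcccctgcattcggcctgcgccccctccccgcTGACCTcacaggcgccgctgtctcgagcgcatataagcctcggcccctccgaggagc
Gal, chr19:3414545-3414794, minus strand: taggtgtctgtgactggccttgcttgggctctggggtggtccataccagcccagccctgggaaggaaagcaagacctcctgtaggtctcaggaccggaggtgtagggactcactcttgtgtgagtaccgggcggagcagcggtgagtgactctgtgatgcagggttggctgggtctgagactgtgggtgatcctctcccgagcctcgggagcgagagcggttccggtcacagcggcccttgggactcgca
Cartpt, chr13:99900684-99900933, minus strand: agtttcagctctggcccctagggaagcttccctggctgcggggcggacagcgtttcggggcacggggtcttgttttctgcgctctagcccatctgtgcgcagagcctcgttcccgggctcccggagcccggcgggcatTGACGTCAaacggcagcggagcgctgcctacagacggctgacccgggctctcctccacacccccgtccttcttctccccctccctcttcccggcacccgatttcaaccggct
The motifs searched were TATAAA (the TATA box), TGACG and the whole TGACGTCA (the core and the full cAMP response element), TGAGTCA (the AP-1 site) and AGGTCA (the core of nuclear receptor sites). TATAAA begins 27 bases before the start site in Pmch, 33 in Hcrt and 25 in Pomc, and it is held by 12.4% of the 32851 promoters of this length. TGACGTCA was found in Cartpt alone of the 8 genes, 112 bases before the start, and in 1.55% of all promoters. The shorter TGACG is part of that site on either strand. It was also found in Trh, 96 bases before the start, and 17.8% of all promoters hold it. TGAGTCA was found in Pmch, 88 bases before the start, against 4.46% of all promoters. AGGTCA was found in Oxt at 185 and 166 bases before the start, in Trh at 57 and in Pomc at 62, against 14% of all promoters. No searched motif was found in Avp or Gal, and of the 3 pairs Pmch and Hcrt alone had a searched motif in common, the TATA box.

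Oxt and Avp are neighbours. Oxt lies on chromosome 2 of GRCm38 from 130576173 to 130577054 on the plus strand and Avp from 130580620 to 130582554 on the minus strand, with 3565 bases between their ends. Their coding sequences share a run of 127 identical bases, which runs across the junction of the first and second of 3 exons and encodes a part of neurophysin, the carrier protein cut from both precursors.
Oxt and Avp shared run: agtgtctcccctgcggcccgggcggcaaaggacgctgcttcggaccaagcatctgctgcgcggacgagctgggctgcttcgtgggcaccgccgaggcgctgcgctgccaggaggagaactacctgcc
Of all stretches of 31 bases, 19.1% of those in the Oxt transcript occur in Avp, and 17.7% of those in the Avp transcript occur in Oxt. Read pairs that lie wholly inside the shared run cannot be told apart between the genes, and their number is not known. The split of a low level of one beside a high level of the other is less certain for that reason. The other members lie apart, Pmch on chromosome 10, Hcrt on 11, Trh on 6, Gal on 19, Pomc on 12, Agrp on 8, Cartpt on 13 and Crh on 3.

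Oxt, which encodes oxytocin, was the most abundant of the 10 genes in each control saline library and was close to the floor in the control-labelled cocaine libraries. Its level was 101, 180, 182 and 87.7 scaled TPM in control saline. In the control-labelled cocaine libraries it was listed at 0 in replicates 1, 2 and 4 and at 0.233 scaled TPM in replicate 3. All 4 of these libraries lay below all 4 of control saline. The fitted difference was -7.90 on the scale of log2(scaled TPM + 0.5), with a standard error of 0.77 and an adjusted p of 6.07e-05, and its size depends on the 0.5 added because of the zeros. Here and below the test is limma across all 13471 genes with Benjamini-Hochberg adjustment, and a gene is called at an adjusted p under 0.05 and an absolute log2 difference of at least 0.5. The call held without any single library, with adjusted p from 5.98e-06 to 0.000411.

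Oxt was also low in cKO saline, at 2.34, 2.57, 24.4 and 0.578 scaled TPM. Replicate 3 stood above the other three, yet every cKO saline library lay below every control saline library, and the group mean was 18.4 times lower. This difference was called (log2 difference -5.07, standard error 0.77, adjusted p = 0.0177). It was not called without control saline replicate 1 (adjusted p = 0.0559), 2 (0.0924) or 3 (0.0586), nor without cKO saline replicate 1 (0.0923) or 2 (0.077), nor in a fit of the compared groups alone (0.061). It was -4.69 with an adjusted p of 0.451 in the libraries whose title and tag are in accord, and 0.36 with an adjusted p of 1 by the tags. In the cKO-labelled cocaine libraries Oxt was at 8.82 and 52.8 scaled TPM, above all of the control-labelled cocaine libraries and overlapping with cKO saline. Against cKO saline the log2 difference was 2.51 (standard error 0.95, adjusted p = 0.0785), which did not pass the test. It passed without cKO saline replicate 3 (log2 difference 3.39, adjusted p = 0.00556) or cKO cocaine replicate 1 (3.77, 0.0465) and with the replicate block (2.67, 0.048), and over single libraries left out it ran from 1.26 to 3.77.

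Avp, which encodes vasopressin, the hormone that makes the kidney retain water, was lower than Oxt in every control saline library and had the same order of the first 2 groups. Its level was 69.7, 74.0, 43.7 and 16.4 scaled TPM in control saline and 0.467, 0.471, 2.12 and 0.731 in the control-labelled cocaine libraries. The groups did not overlap, and the mean fell from 50.9 ± 26.6 to 0.947 ± 0.79 scaled TPM (SD, n = 4 each), which is 53.8 times lower. The fall was called (log2 difference -5.08, standard error 0.65, adjusted p = 0.000309) and stayed called without any single library (adjusted p 0.000236 to 0.00146). By the genotype tags it was -3.56 with an adjusted p of 0.0591.

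In cKO saline Avp was at 2.00, 3.93, 11.0 and 0.76 scaled TPM. Here too replicate 3 was highest and replicate 4 lowest, and all 4 libraries lay below control saline. The log2 difference of -3.64 (standard error 0.65) just missed the threshold with an adjusted p of 0.0521. It passed without control saline replicate 4 (0.0347), control cocaine replicate 1 (0.0455) or cKO saline replicate 3 (0.0174), with a pseudocount of 1 (0.0397) and with a filter at a mean of 5 TPM (0.0309). Leaving out any other single library gave no call, with an adjusted p of up to 0.183. The libraries labelled cKO cocaine held 1.11 and 4.08 scaled TPM, inside the range of cKO saline. Oxt was 7.95 and 12.9 times Avp in these libraries, the highest ratios among the 14. In control saline the ratio ran from 1.46 to 5.34, in cKO saline from 0.656 to 2.22, and in the control-labelled cocaine libraries from 0 to 0.11. The ratio was not tested.

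**Figure D1:**
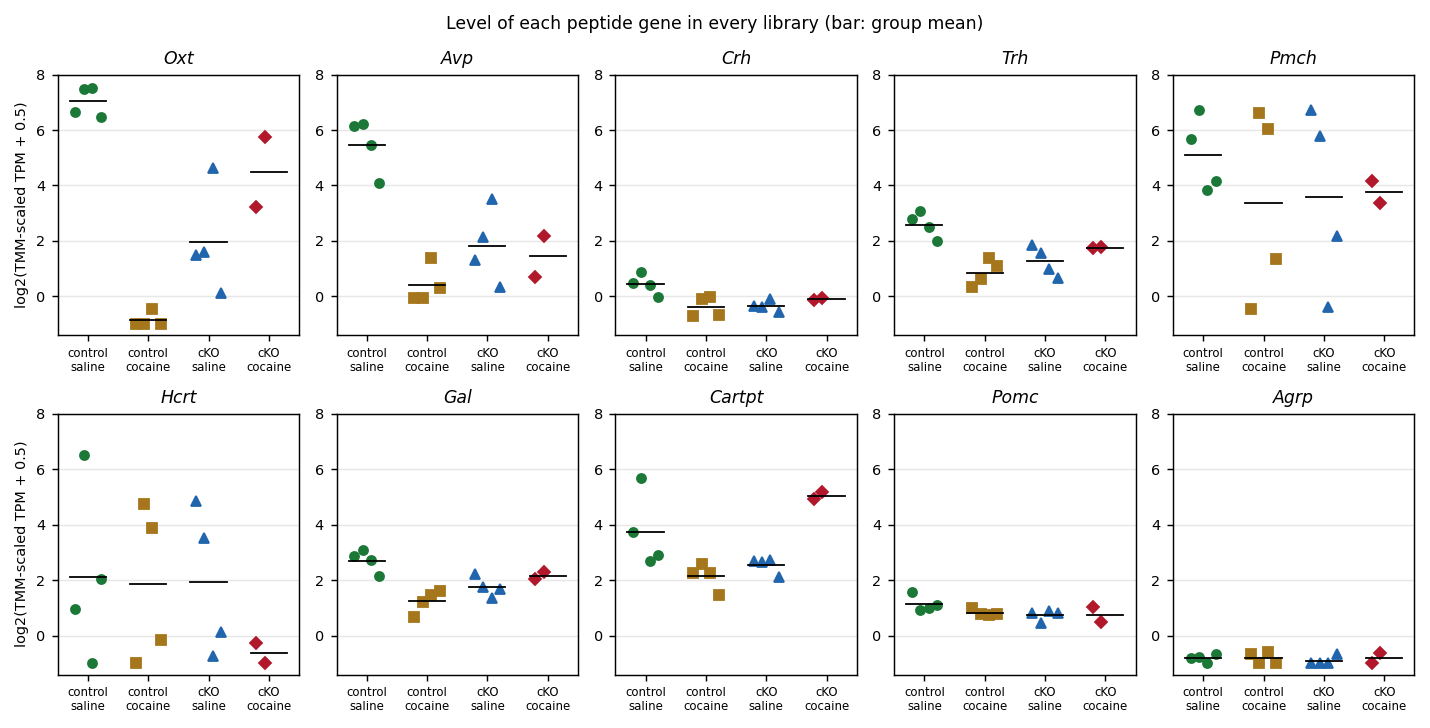
Level of each of the 10 peptide genes as log2(scaled TPM + 0.5) in each of the 14 libraries, in replicate order within the 4 groups as labelled; points are libraries, bars are group means. Oxt and Avp in control saline lie above all control-labelled cocaine libraries and all of cKO saline, Pmch and Hcrt spread widely inside the groups, and Cartpt is high in both cKO-labelled cocaine libraries.

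Trh encodes thyrotropin-releasing hormone, which drives the pituitary and thyroid. It was at 6.36, 7.95, 5.20 and 3.5 scaled TPM in control saline and at 0.75, 1.03, 2.14 and 1.66 in the control-labelled cocaine libraries. No library of the second group reached the lowest of the first. The mean fell 4.13 times, from 5.75 ± 1.88 to 1.39 ± 0.625 scaled TPM (SD, n = 4 each), with a log2 difference of -1.73 (standard error 0.30, adjusted p = 0.00162), called without any single library (adjusted p 0.00145 to 0.00589). The cKO saline libraries were at 3.14, 2.43, 1.46 and 1.09 scaled TPM, also all below control saline, but the log2 difference of -1.33 (standard error 0.30) had an adjusted p of 0.0783. Both cKO-labelled cocaine libraries, at 2.82 and 2.95 scaled TPM, lay within the range of cKO saline and above the control-labelled cocaine libraries.

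Crh, which encodes the releasing hormone that starts the stress response, was near the floor in all groups. It was at 0.894, 1.36, 0.816 and 0.491 scaled TPM in control saline, 0.113, 0.435, 0.494 and 0.135 in the control-labelled cocaine libraries, and 0.296, 0.271, 0.426 and 0.170 in cKO saline. The cKO saline libraries all lay below control saline, and 1 control-labelled cocaine library, replicate 3, overlapped with it narrowly. Two-sided exact permutation tests of 4 against 4 libraries, whose smallest possible p is 0.0286, gave p = 0.0286 for cKO saline (log2 difference -0.79) and p = 0.0571 for cocaine in control-labelled mice (-0.81). In a limma fit of all genes above 0 without the filter, the adjusted p was 0.0178 for cocaine in control-labelled mice and 0.136 for cKO saline. The libraries labelled cKO cocaine were at 0.408 and 0.463 scaled TPM.

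Pmch, which encodes melanin-concentrating hormone, and Hcrt, which encodes the wake-promoting orexins, spread widely between libraries of the same group. Pmch was at 50.7, 104, 13.8 and 17.3 scaled TPM in control saline, 0.232, 96.8, 64.6 and 2.06 in the control-labelled cocaine libraries, 106, 54.7, 0.27 and 4.02 in cKO saline, and 17.4 and 9.77 in the cKO-labelled cocaine libraries. The highest library exceeded the lowest 417 times within the control-labelled cocaine libraries and 390 times within cKO saline. In both of these groups 2 libraries were high and 2 were low, and every group overlapped with every other. Hcrt was at 1.44, 91.3, 0 and 3.61 scaled TPM in control saline and at 0, 26.5, 14.4 and 0.39 in the control-labelled cocaine libraries. It was at 28.7, 11.1, 0.0972 and 0.609 in cKO saline and at 0.338 and 0 in the cKO-labelled cocaine libraries. The libraries high in Pmch were high in Hcrt within the control-labelled cocaine libraries and within cKO saline, while control saline replicate 2 held as much Hcrt as Pmch within 1.14 times and control saline replicate 1 had 35.3 times more Pmch.

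Neither gene was called in any comparison. For cocaine in control-labelled mice the log2 difference was -1.71 for Pmch (standard error 1.71, adjusted p = 0.494) and -0.26 for Hcrt (standard error 1.74, adjusted p = 0.935). With standard errors of this size, these libraries set no narrow limit on a change in either gene.

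Gal encodes galanin, a peptide of many hypothalamic and brainstem neurons. Its level was 6.78, 7.94, 6.06 and 3.97 scaled TPM in control saline and 1.08, 1.81, 2.28 and 2.56 in the control-labelled cocaine libraries, without overlap. The mean fell 3.20 times, from 6.19 ± 1.67 to 1.94 ± 0.646 scaled TPM (SD, n = 4 each), with a log2 difference of -1.46 (standard error 0.24, adjusted p = 0.00117), called without any single library (adjusted p 0.00105 to 0.00426). In cKO saline it was at 4.13, 2.87, 2.08 and 2.75 scaled TPM, and replicate 1 of these overlapped with control saline. That log2 difference was -0.95 (standard error 0.24, adjusted p = 0.0975). The libraries labelled cKO cocaine were at 3.66 and 4.37 scaled TPM, above each control-labelled cocaine library.

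Cartpt encodes the CART peptide, found in neurons that restrain feeding and in many other sites of the brain. It was lower in the control-labelled cocaine libraries and higher in the cKO-labelled cocaine libraries, each against the saline group of the same label. The control saline libraries were at 12.9, 50.7, 5.94 and 7.05 scaled TPM and the control-labelled cocaine libraries at 4.33, 5.46, 4.29 and 2.28. The groups did not overlap, but replicate 2 of control saline stood far above its own group. The log2 difference was -1.61 (standard error 0.50, adjusted p = 0.0347), and it was not called without control saline replicate 1 (0.0625), control cocaine replicate 3 (0.0596) or control cocaine replicate 4 (0.0971), nor in fits without the filter (0.0567), of the compared groups alone (0.0944) or by the tags (0.0609). Over single libraries left out the log2 difference ran from -1.97 to -0.97, and it was -0.97 without control saline replicate 2. The cKO saline libraries held 5.98, 5.80, 6.15 and 3.88 scaled TPM, a narrow range.

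In the cKO-labelled cocaine libraries Cartpt was at 29.8 and 35.8 scaled TPM, above every cKO saline and control-labelled cocaine library and below only control saline replicate 2. The mean was 6.02 times that of cKO saline (log2 difference 2.5, standard error 0.62, adjusted p = 0.0142). With only 2 libraries in the group, the call was lost without cKO cocaine replicate 1 (log2 difference 2.63, adjusted p = 0.0552) or replicate 2 (2.37, 0.116). Ucn, which encodes urocortin, a relative of Crh and the product of neurons of the Edinger-Westphal nucleus in the midbrain that also make CART, was high in the same 3 libraries. It was at 5.78 scaled TPM in control saline replicate 2, at 3.66 and 3.94 in the cKO-labelled cocaine libraries, and at most 0.335 in all others. Ucn was higher in the cKO-labelled cocaine libraries than in cKO saline (log2 difference 2.76, adjusted p = 0.021). It passed the filter only through the 3 libraries where it was high, so this call is no independent support. Over the 14 libraries with group means removed, Cartpt and Ucn had r = 0.86 and rho = 0.64, and r fell to 0.15 without the 2 libraries farthest from the median, so the relation rests on those. The pair was chosen after its values were seen, and its part in the Cartpt differences was not tested.

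Pomc, the precursor of melanocortins and beta-endorphin, and Agrp, the antagonist at melanocortin receptors, were low in every library. Pomc was at 2.48, 1.42, 1.5 and 1.63 scaled TPM in control saline, 1.49, 1.20, 1.17 and 1.21 in the control-labelled cocaine libraries, 1.28, 0.868, 1.37 and 1.28 in cKO saline, and 1.53 and 0.914 in the cKO-labelled cocaine libraries. It was highest in control saline replicate 1, the library with the choroid plexus and Gh signal. For cocaine in control-labelled mice the log2 difference was -0.33 (standard error 0.16, adjusted p = 0.152). It was -0.60 with an adjusted p of 0.00672 on TPM as deposited, a scale on which the median of all genes moved by -0.335. Agrp was listed at 0 in 7 of 14 libraries and was at most 0.169 scaled TPM in the rest, so no difference was detectable.

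**Figure D2:**
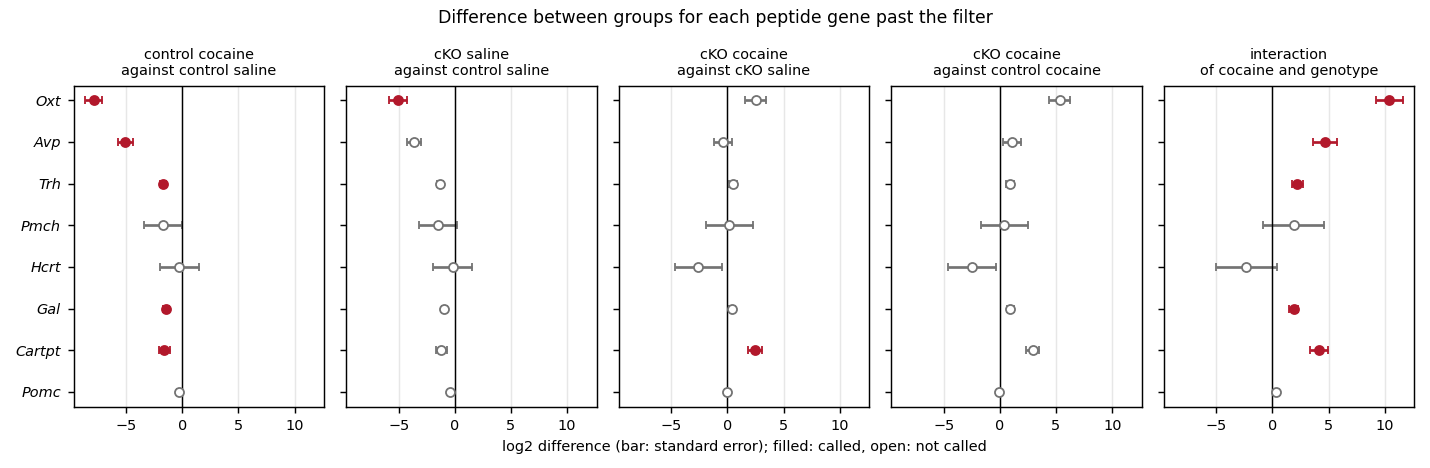
Log2 difference of the 8 peptide genes past the filter in each comparison, with groups as labelled; bars are standard errors, and filled points are called genes. Oxt, Avp, Trh, Gal and Cartpt are called lower for cocaine in control-labelled mice, Cartpt is called higher for cocaine in cKO-labelled mice, and the same 5 genes are called for the interaction.

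Counted together, 5 of the 8 tested genes were called lower and 0 higher for cocaine in control-labelled mice (Oxt, Avp, Trh, Gal and Cartpt), where 1.66% of all tested genes were called lower and 1.43% higher. The same 5 lay below control saline without overlap, as did 11.1% of all tested genes. Their median log2 difference over the 8 was -1.66, against 0.00 over all genes. In cKO-labelled mice, cocaine gave 1 call higher (Cartpt) and 0 lower, beside a background of 1.97% higher and 1.17% lower, with a median of 0.30. At an unadjusted p under 0.05 there were 2 higher (Oxt and Cartpt). The share of all genes under this unadjusted threshold was not counted in any comparison, so counts by it have no background here. The comparison of cKO saline against control saline gave 1 call lower (Oxt) and 0 higher, with 0.0445% of all genes called lower and 0.00742% higher. At the unadjusted threshold 6 of the 8 were lower. There 4 of the 8 (Oxt, Avp, Trh and Pomc) did not overlap with control saline, as did 6.44% of all genes, and the median was -1.27. It shares the control saline libraries with the comparison of cocaine in control-labelled mice. The cKO-labelled against the control-labelled cocaine libraries gave 0 calls in limma, where 0.0148% of all genes were called higher and 0.0223% lower, although 4 of the 8 had an unadjusted p under 0.05 (Oxt, Trh, Gal and Cartpt). The largest was Oxt at 5.34 (standard error 0.95, adjusted p = 0.0817). It was called without cKO saline replicate 3 (adjusted p = 0.00522) or replicate 4 (0.0424), and Cartpt was called without control saline replicate 2 (log2 difference 2.91, adjusted p = 0.00491).

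The interaction asks whether the cocaine difference was the same in the labelled genotypes. It was called for 5 of the 8 genes, all positive, meaning that the cocaine difference lay higher in the cKO-labelled than in the control-labelled mice. For all genes 0.49% were called positive and 0.312% negative. The estimates were 10.41 for Oxt (standard error 1.22, adjusted p = 0.00303), 4.69 for Avp (1.03, 0.0479), 2.22 for Trh (0.47, 0.0452), 1.88 for Gal (0.37, 0.0392) and 4.11 for Cartpt (0.80, 0.0357). Oxt alone stayed called when any single library was left out (adjusted p 0.000141 to 0.0216). The others depended on single libraries. Avp stayed called only without control saline replicate 4 or cKO saline replicate 3, and otherwise reached an adjusted p of up to 0.152. Trh stayed called only without control saline replicate 4 or control cocaine replicates 1 or 3 (otherwise up to 0.145), Gal only without control saline replicate 4, any control cocaine library or cKO saline replicate 1 (otherwise up to 0.115), and Cartpt only without one of control saline replicates 2, 3 and 4 and control cocaine replicates 1 and 2 (otherwise up to 0.114). In the libraries whose title and tag are in accord none of the 5 was called, with Oxt at 9.97 (adjusted p = 0.113), and on TPM as deposited Oxt alone was called. Maged1 itself had cocaine differences of opposite sign in the labelled genotypes, -1.09 and 1.19 on the log2 scale, both called. Its own interaction was 2.28 (limma, adjusted p = 5.53e-05). The interaction therefore also sets the groups high in Maged1 (control saline and cKO-labelled cocaine) against the groups low in it. A cocaine difference that depends on genotype and a difference by Maged1 level cannot be told apart there. Whether the labels of the cocaine libraries bear on the cocaine differences or the interaction of the peptide genes was not tested.

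To see which peptides varied together apart from the groups, each library was expressed as its deviation from its group mean in log2. The cKO cocaine group has only 2 libraries, whose deviations mirror each other. Of 28 pairs among the 8 genes, 17 had a positive r, and 3 pairs passed an exact permutation test (two-sided, libraries permuted within groups, 27648 arrangements, Benjamini-Hochberg over the 28 pairs) by both r and rho. At an unadjusted p under 0.05 there were 4. The passing pairs were Oxt with Avp, Pmch with Hcrt and Trh with Gal. Members of each pair are not neighbours on a chromosome except Oxt and Avp.

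**Figure D3:**
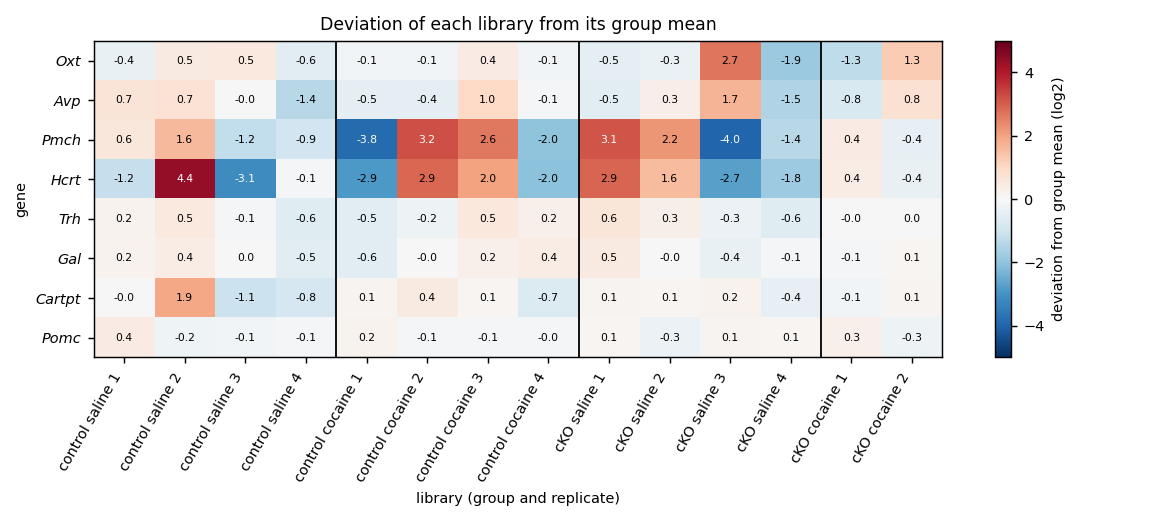
Deviation of each of the 14 libraries from its group mean (log2 of scaled TPM + 0.5) for 8 peptide genes; columns are libraries by group and replicate, and numbers are the deviations. Pmch and Hcrt share the same high and low libraries in control cocaine and cKO saline, and Oxt and Avp are both highest in replicate 3 and lowest in replicate 4 of cKO saline.

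Oxt and Avp had r = 0.84 (exact permutation p = 0.00217, adjusted 0.0203) and rho = 0.83 (adjusted 0.0284). The value was 0.84 within the 8 saline libraries and 0.84 within the 6 cocaine libraries, and 0.68 without cKO saline replicates 3 and 4, the farthest from the median. Over single libraries left out, r ran from 0.75 to 0.89 and the adjusted p from 0.0243 to 0.146, above 0.05 without control saline replicate 2 or 4, control cocaine replicate 3 or cKO saline replicate 1, 3 or 4. Oxt was listed at 0 in 3 libraries, and the genes share the run of sequence shown above. The part of that run in the relation was not tested.

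Pmch and Hcrt had r = 0.88 (exact permutation p = 0.000543, adjusted 0.0152) and rho = 0.87 (adjusted 0.0182). It was 0.82 in the saline libraries, 0.99 in the cocaine libraries, and 0.86 without control cocaine replicate 1 and cKO saline replicate 3. Leaving out single libraries gave r of 0.85 to 0.94, with an adjusted p above 0.05 only without control saline replicate 2 (0.0628). Trh and Gal had r = 0.86 (exact permutation p = 0.00148, adjusted 0.0203) and rho = 0.86 (adjusted 0.0182), with 0.85 in the saline and 0.87 in the cocaine libraries, and 0.93 without cKO saline replicates 1 and 4. Here single libraries gave r of 0.81 to 0.94, with an adjusted p above 0.05 without control saline replicate 2 or 4, control cocaine replicate 1 or cKO saline replicate 1 (up to 0.0932). None of the 3 pairs passed within the saline or within the cocaine libraries alone, where the adjusted p was from 0.162 to 0.583. The 6 cocaine libraries allow so few arrangements that a single pair could not pass there after adjustment.

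**Figure D4:**
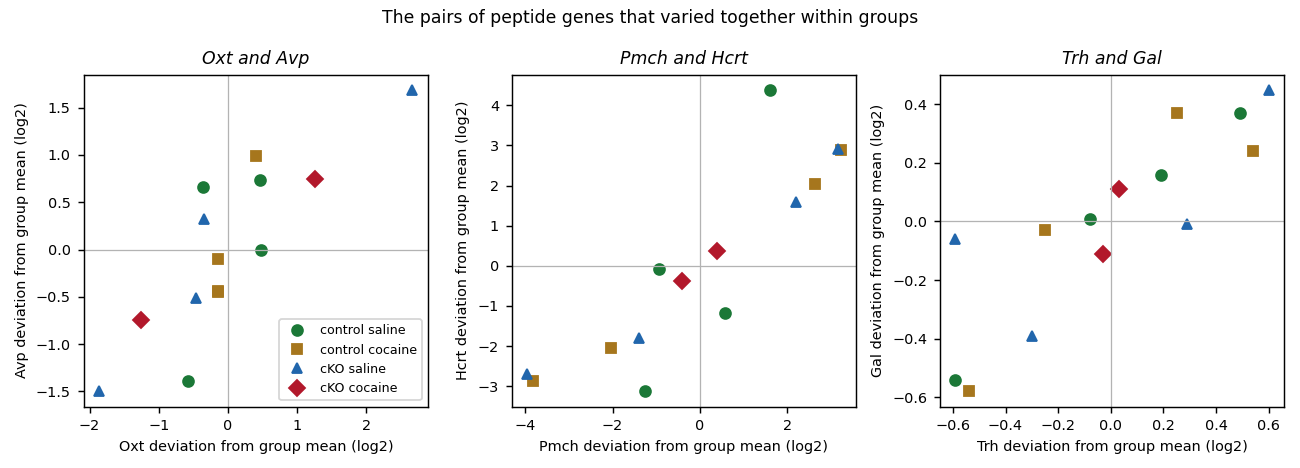
Deviations from the group mean (log2) of 14 libraries for Oxt against Avp, Pmch against Hcrt and Trh against Gal; colours and shapes give the group as labelled. Points of each pair run from lower left to upper right, with r of 0.84, 0.88 and 0.86.

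Between the pairs the values were lower. Oxt had r of -0.28 with Pmch and -0.13 with Hcrt, and Avp had 0.00 and 0.05. Trh and Gal lay closer to the lateral hypothalamic genes, with r of 0.64 and 0.61 for Pmch and 0.59 and 0.50 for Hcrt, none of which passed. Hcrt and Cartpt had r = 0.68 (exact permutation p = 0.0293, adjusted 0.205), and r was 0.42 without control saline replicate 2 and cKO saline replicate 1. Pomc had a negative r with each of the other 7 genes, between -0.34 and -0.13, and none of these passed.

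**Figure D5:**
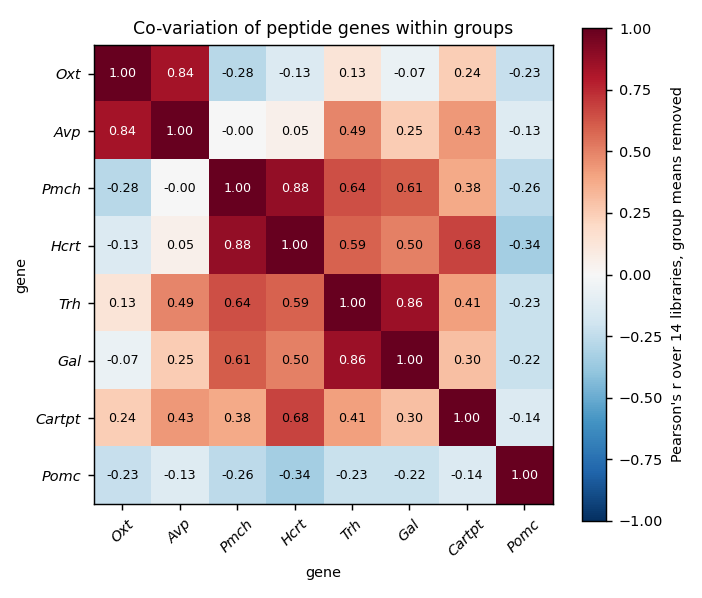
Pearson's r between 8 peptide genes over 14 libraries after removal of the group means; both axes list the genes and each cell prints r. The values for Oxt with Avp (0.84), Pmch with Hcrt (0.88) and Trh with Gal (0.86) stand above the rest.

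Genes of the hypothalamus that do not encode peptides were looked at next. A list of 13 transcription factors of the hypothalamus summed to 6.56 to 12.1 scaled TPM in control saline, 2.93 to 8.67 in the control-labelled cocaine libraries, 4.14 to 8.16 in cKO saline and 5.13 and 5.52 in the cKO-labelled cocaine libraries. Of the 13, 4 passed the filter. For cocaine in control-labelled mice 1 fell and 0 rose, with a median log2 difference of -0.40, and the other comparisons gave no call. The gene that fell was Otp, a factor needed for the neurons that make oxytocin, vasopressin, TRH and CRH. It was at 2.39, 3.82, 1.89 and 1.49 scaled TPM in control saline, 0.183, 0.586, 0.657 and 0.223 in the control-labelled cocaine libraries, 1.22, 1.08, 0.649 and 0.0625 in cKO saline, and 0.189 and 0.772 in the cKO-labelled cocaine libraries. All control saline libraries lay above all others, and the log2 difference for cocaine in control-labelled mice was -1.65 (standard error 0.36, adjusted p = 0.00614). Foxb1, a factor of the mammillary region, lay the other way without a call, at 0.822 to 1.30 scaled TPM in control saline and 1.33 to 1.84 in the control-labelled cocaine libraries, without overlap, and was the 1 gene of the list higher at an unadjusted p under 0.05.

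Within groups, the mean log2 level of the same list rose with Hcrt (r = 0.93) and Pmch (r = 0.89), each with an adjusted exact permutation p of 0.0101 over 8 relations, and with rho of 0.86 and 0.89 (adjusted 0.0343 each). Without the libraries farthest from the median, control saline replicate 2 and control cocaine replicate 2, r was 0.88 and 0.91. The value was 0.65 for Trh, 0.62 for Cartpt, 0.59 for Gal, 0.23 for Avp, 0.08 for Oxt and -0.40 for Pomc, which did not pass. The part of the share of hypothalamic tissue in the group differences was not tested.

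Other cell type markers moved with some of these results. The 6 ependymal genes, which mark the lining of the ventricles, summed to 22.5 to 23.8 scaled TPM in control saline, 4.07 to 22.7 in the control-labelled cocaine libraries, 4.26 to 15.3 in cKO saline, and 19.9 and 27.0 in the cKO-labelled cocaine libraries. All 6 were lower in cKO saline than in control saline (median log2 difference -0.79, 0 called in limma, 5 at an unadjusted p under 0.05). For cocaine in cKO-labelled mice all 6 were higher and 1 was called, Rsph1, at 1.27 (adjusted p = 0.0354). In control-labelled mice all 6 were lower with cocaine (median -0.63, 0 called, 3 at an unadjusted p under 0.05). The interaction was positive for all 6, as for the called peptide genes (median 1.56, 0 called, 6 at an unadjusted p under 0.05). It was also positive for all 7 habenular (median 1.23) and all 3 tested choroid plexus genes (1.83), with 0 called. In the thalamic list 3 were positive and 4 negative. The 7 habenular genes ran from 7.87 to 157 scaled TPM in the control-labelled cocaine libraries and from 46.2 to 70.1 in control saline, with 0 called in limma and 3 lower in cKO saline at an unadjusted p under 0.05. Choroid plexus genes summed to 1440 in control saline replicate 1 and to at most 43.8 in cKO saline, with 0 of 3 tested called in limma and all 3 lower in cKO saline at an unadjusted p under 0.05. Markers of dopamine and histamine neurons were highest in control cocaine replicate 2 (43.8 scaled TPM), also the library with the most Pmch in its group. Inhibitory neuron genes summed to 18.6 in control cocaine replicate 1 and up to 220 in cKO saline replicate 1, the lowest and the highest of all libraries, with 0 called in limma and 0 at an unadjusted p under 0.05. These 2 libraries were also the lowest and the highest in Pmch. Tanycyte genes summed to 0.855 to 4.04 and pituitary genes to 2.12 to 7.95 over all libraries, striatal genes to 15.3 to 45.9, and cortical and hippocampal genes to 48.2 to 101. In each of these lists limma called 0, with at most 1 gene in a direction at an unadjusted p under 0.05. Of the thalamic list, Prkcd (0.74, adjusted p = 0.00687) and Lef1 (0.54, 0.0174) rose for cocaine in control-labelled mice and Gbx2 (0.95, 0.0138) in cKO-labelled mice. The part of these tissues in the peptide differences was not tested.

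Lists of other genes of the peptide system were counted in the same way. Of 20 other neuropeptide genes of the hypothalamus 11 were tested, and the rest stayed under the filter, so the counts do not cover them. Of the 11, 0 were called in limma in any of the 5 comparisons. For cocaine in control-labelled mice their median log2 difference was -0.03, with 2 higher and 0 lower at an unadjusted p under 0.05. Among the 13 genes for peptide processing and granules, all of them tested, Chgb, a granule protein, rose with cocaine in control-labelled mice (log2 difference 0.92, adjusted p = 2.35e-05) and in cKO-labelled mice (0.85, adjusted p = 0.000276). It was at 34.2 to 37.8 scaled TPM in control saline and 60.5 to 77.0 in the control-labelled cocaine libraries. Pcsk1n, an inhibitor of the enzyme that cuts the precursors, rose in cKO-labelled mice (0.60, adjusted p = 0.000314) and had an interaction of 0.67 (adjusted p = 0.00686). The medians of the list were 0.06 in control-labelled mice and 0.12 in cKO-labelled mice.

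Of 17 receptors for these peptides 7 were tested, and Galr1, a receptor for galanin, was the only one called. It was at 2.05, 3.03, 2.28 and 2.44 scaled TPM in control saline, 1.11, 1.77, 1.09 and 1.42 in the control-labelled cocaine libraries, 1.29, 1.53, 1.92 and 1.05 in cKO saline, and 2.35 and 2.65 in the cKO-labelled cocaine libraries. Like Gal, it fell in control-labelled mice without overlap (log2 difference -0.68, adjusted p = 0.00721), and it rose in cKO-labelled mice (0.64, adjusted p = 0.0305), with an interaction of 1.32 (adjusted p = 0.0278). Oxtr, the oxytocin receptor, stayed between 0.418 and 1.01 scaled TPM in all libraries. Of 5 partners of the ligands (binding proteins, degrading enzymes and related peptides) 3 were tested, and Ucn in cKO-labelled mice was the only call. Ucn passed the filter only through the libraries where it was high.

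The genes most like each peptide were found by r over the same deviations of 14 libraries, among all tested genes, as a description. For Oxt they were Adgrb3 (r = 0.86), Pcdh18 (0.85) and Aars2 (0.84), and for Avp Ak4 (0.88), Rab13 (0.87) and Foxred1 (0.81). For Pmch they were Fgf11 (0.96), Rpp25 (0.95) and Psd2 (0.95), and for Hcrt Arnt2 (0.97), Tmem106c (0.92) and Frmpd3 (0.91). For Trh the list was Bcl2 (0.91), Gpx1 (0.90) and Arhgef10 (0.89), and for Gal it was Men1 (0.93), Slc16a14 (0.93) and Six3 (0.91). Pomc was most like Ro60 (0.91), Fopnl (0.91) and Cct6a (0.89), and Cartpt most like 1500011B03Rik (0.91), Psme1 (0.90) and Satb1 (0.88). Of these, Six3, a transcription factor of the forebrain, was at 0.654 to 8.78 scaled TPM over the libraries, and Arnt2, a partner of Sim1 in hypothalamic neurons, at 20.4 to 26.9. The rho of the named genes ran from 0.46 (Oxt with Aars2) to 0.97 (Pmch with Fgf11). All were picked for the highest r among all tested genes, and none of these relations was tested.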

How the data were processed

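RNA of dissected mouse thalamus was sequenced after ribosomal depletion. According to the study's methods, the authors mapped reads to GRCm38.p4 (mm10) with STAR 2.5.3a, quantified them with Salmon and deposited TPM per gene and library. Library totals over the listed genes were between 312659 and 377401 TPM. In 2 deposited tables TPM are written with a decimal comma, read here as a point. Counts were not used. Groups follow the sample titles. The replicate numbers did not pair libraries (mean correlation of same-numbered deviations -0.01 over 18 pairs).

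TPM were divided by unweighted TMM factors (30% and 5% trimmed), 0.5 was added and log2 taken. Genes at 1 TPM or more in at least 3 libraries, 13471, were fitted with limma 3.58.1 (R 4.3.3) as 4 group means with an intensity trend. Within-group correlations and low genes used exact permutation tests (Python 3.11.15, scipy 1.17.1). Named genes are the 10 peptide genes, Maged1, the 3 genes most alike to each, and called genes of the lists. The peptide genes and the lists were chosen with earlier results of these data known. Alternatives were other scalings, pseudocounts, filters and groupings, a replicate block, and each library left out. The procedure was tested on simulated data. Positions are from GENCODE M21.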

Additional observations from a re-analysis of the deposited data

Results flagged for a closer look

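In 30 groups of 4 libraries, 5 held a library far from the other three by Dixon's criterion, which chance gives in about 1 of 20 groups. Oxt in control-labelled cocaine replicate 3 was at 0.233 scaled TPM while the others were listed at 0. Pomc was highest in control-labelled cocaine replicate 1, at 1.49 scaled TPM, and lowest in cKO saline replicate 2, at 0.868. Agrp was at 0.134 scaled TPM in cKO saline replicate 4 and listed at 0 in the rest of that group. In these Oxt and Agrp groups any value above 0 was bound to be flagged. The rate of 1 in 20 does not apply to such groups. Cartpt was lowest in cKO saline replicate 4, at 3.88 scaled TPM.

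The cocaine difference differed between the labelled genotypes by the interaction term for Oxt (10.41 on the log2 scale), Avp (4.69), Trh (2.22), Gal (1.88) and Cartpt (4.11). Of these, Avp, Trh, Gal and Cartpt passed the test by a narrow margin, and Maged1 differed in the same direction.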

How the results depend on the processing

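Median-of-ratios scaling, either pseudocount and the removal of the minimum of 0.5 kept all 5 calls for cocaine in control-labelled mice. Values of the following settings differed, and the cause was not tested unless the setting itself removes libraries. The filter at a mean of 5 TPM left 5 of the 8 genes to test, without Trh and Gal, and gave 3 calls for cocaine in control-labelled mice. The genotype tags also gave 3 calls there, with all 8 genes tested and Avp and Cartpt not called. For cKO saline against control saline the count was 2 with a pseudocount of 1, 2 with the filter at a mean of 5 TPM, and 0 with the compared groups alone, with the tags and with the libraries in accord. For cKO against control after cocaine it was 1 with a pseudocount of 0.1 and 1 with the compared groups alone. For the interaction it was 1 on TPM as deposited, 3 without a filter, 3 of the 5 genes tested at a mean of 5 TPM, and 0 with the tags or with the libraries in accord. With each library left out the counts ran from 4 to 5, 0 to 2, 0 to 2, 0 to 1 and 1 to 5 for cocaine in control-labelled mice, cocaine in cKO-labelled mice, cKO against control after saline, the same after cocaine, and the interaction.

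The replicate block gave 2 calls for cocaine in cKO-labelled mice, 2 for cKO saline and 1 for the interaction. Replicate numbers did not pair the libraries. With the block, Pmch was -0.98 and Pomc -0.011 for cocaine in cKO-labelled mice, and Pmch -0.78 for cKO against control after cocaine. Other values that turned were not past the test in either setting, except Oxt for cKO saline, called at -5.07 with the titles. For cocaine in cKO-labelled mice Pmch was -0.16 and Pomc -0.26 on TPM as deposited, Pomc was -0.0009 with median-of-ratios scaling, -0.19 with the tags and -0.11 with the libraries in accord, and Oxt was -0.20 with the tags. For cKO saline the tags gave 0.0033 for Pomc and 0.36 for Oxt. For the interaction they gave -0.062 for Pomc and 1.36 for Hcrt, and the libraries in accord 1.53 for Hcrt. Agrp under cocaine in control-labelled mice was -0.039 on TPM as deposited and -0.039 with a pseudocount of 0.1.

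With single libraries left out, Hcrt ran from -1.30 to 1.21 for cocaine in control-labelled mice and from -1.21 to 1.29 for cKO saline. For cocaine in cKO-labelled mice Pmch ran from -1.14 to 1.23, Pomc from -0.25 to 0.27 and Avp from -1.15 to 0.37. For cKO against control after cocaine Pmch ran from -0.90 to 1.45 and Pomc from -0.32 to 0.20. The count of pairs that varied together was 5 by the tags, 0 in the saline libraries alone, 0 in the cocaine libraries alone, where a single pair could not pass with so few arrangements, 0 in the libraries in accord, and 0 to 4 with single libraries left out. The depth behind each TPM value is unknown, which limits Agrp, Crh and the zeros of Oxt and Hcrt most. The fit of the 10 libraries in accord was chosen after seeing the data.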
